A study of Mus musculus with 6 samples.

Results

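Cyclins, cyclin-dependent kinases (CDKs) and CDK inhibitors were followed in the livers of acute ethanol-exposed and control mice. Members were all genes of the deposited table whose symbol begins with that of a cyclin, a CDK, a CDK-like kinase or a CDK inhibitor. Of 73 such symbols, 3 pseudogenes were left out, as were Ccng1 and Cdkn1a, which leaves 68 members of 28880 genes. The rule used names only and no measured value. Besides the enzymes themselves it takes in proteins named after them, such as Cdk5rap2. Every member was placed in a role: 9 cell-cycle cyclins, 5 cell-cycle CDKs, 6 transcriptional cyclins, 6 transcriptional CDKs, 2 parts of the CDK-activating kinase, 6 CDK inhibitors, 8 other cyclins, 8 other CDKs, 5 CDK-like kinases, 11 named partners and 2 genes outside these roles.

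All mice were wild-type male C57BL/6J animals aged 6 to 8 weeks, and all 6 libraries carry the same batch label. The 3 ethanol-exposed mice went without food for 12 h, then received ethanol by mouth once, as a 50% solution at 6 g/kg, and their livers were sampled 24 h afterwards. The 3 control mice were kept without ethanol, and the labels do not say whether they were fasted, so ethanol and fasting cannot be told apart. Liver RNA was sequenced as paired reads, and 60514417 to 74210869 reads per library were counted on genes.

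A CDK is active only when bound to a cyclin, and the pairs fall into 2 broad kinds. In the cell-cycle kind, D-type cyclins with Cdk4 or Cdk6 start the inactivation of the retinoblastoma protein, E-type cyclins with Cdk2 open S phase, and A-type and B-type cyclins with Cdk1 or Cdk2 carry the cell through to mitosis. The transcriptional kind acts on RNA polymerase II and on splicing: Cdk9 with cyclin T forms the elongation factor P-TEFb, Cdk8 or Cdk19 with cyclin C forms the kinase module of Mediator, Cdk12 and Cdk13 work with cyclin K, and Cdk11 works with the L-type cyclins. Hepatocytes of the adult liver are mostly quiescent and enter the cycle after tissue loss or injury. In bulk liver, fewer cells of a type and less RNA per cell cannot be told apart.

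The largest changes included close relatives with different values. Cyclin E1 rose 9.39-fold while cyclin E2 fell 3.26-fold. Cyclin L1 rose 15.7-fold, whereas cyclin L2 did not pass the test. With libraries scaled by size alone, cyclin L2 did pass it and fell (log2 fold change -1.08). Of the CDKs themselves, the 2 that rose past both thresholds were Cdk17 (4.45-fold) and Cdk18 (2.22-fold), which belong to neither the cell-cycle nor the transcriptional kind. A differentially expressed gene (DEG) was one with a log2 fold change beyond 1 and, in edgeR's quasi-likelihood test, a p under 0.05 after Benjamini-Hochberg adjustment. By that rule 24.2% of all 16717 genes tested were DEGs, 10.4% higher and 13.8% lower in ethanol-exposed mice. Of the members, 62 had enough reads to be tested, and 12 of them (19.4%) were DEGs, 6 higher and 6 lower, which is near the share of all genes. With the adjusted p alone, 43.0% of all genes passed (21.5% in each direction), against 15 members higher and 12 lower. The median log2 fold change was -0.10 over the tested members and -0.04 over all genes tested.

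Levels below are CPM, read counts per library scaled to a common depth by TMM factors, given in the order of replicates 1, 2 and 3. The factors ranged from 0.768 to 0.836 in ethanol-exposed and from 1.26 to 1.27 in control libraries. Scaling by library size alone moved the median of all genes from -0.04 to -0.71 on the log2 scale, so smaller changes can depend on the scaling. Under it 15 of the 62 tested members, all with positive TMM-scaled values, turned to negative ones, and they are marked where they are named. Of the 15 members that passed the adjusted p but not the fold threshold, 5 passed it whichever library was left out (Ccnd3, Cdk2ap2, Cdk11b, Cdk9 and Ccnt2) and 10 did not. Ethanol replicate 3 stood apart from its group, with a correlation of 0.943 to 0.949 with the other ethanol libraries against 0.968 between those and 0.976 to 0.981 among controls. Its value was the nearest of the ethanol libraries to the control mean in 27 of 62 tested members, against 22 for replicate 2 and 13 for replicate 1. Among the 12 member DEGs, replicate 2 was nearest in 6, replicate 3 in 4 and replicate 1 in 2.

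Ccne1 and Ccnl1 were the strongest DEGs of the cell-cycle and transcriptional kinds. Ccnl2, the relative of Ccnl1, was not a DEG with TMM scaling. The 250 bases before the RefSeq start of these 3 genes are shown, because the genes carry the contrasts between close relatives. They are from RefSeq on GRCm38.p6, written 5′ to 3′ on the strand of the gene. Ccne1 lies at chr7:38107491-38107740 (minus strand), Ccnl1 at chr3:65958250-65958499 (minus strand) and Ccnl2 at chr4:155812239-155812488 (plus strand). Capitals mark the cAMP response element TGACGTCA in Ccnl1, 18 to 11 bases before the start, and a CCAAT box in Ccnl2, 49 to 45 bases before it.
Ccne1: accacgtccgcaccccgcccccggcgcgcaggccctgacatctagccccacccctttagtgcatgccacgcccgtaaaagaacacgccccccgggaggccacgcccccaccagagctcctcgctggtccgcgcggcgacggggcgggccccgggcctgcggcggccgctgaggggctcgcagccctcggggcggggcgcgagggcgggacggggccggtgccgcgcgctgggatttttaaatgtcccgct
Ccnl1: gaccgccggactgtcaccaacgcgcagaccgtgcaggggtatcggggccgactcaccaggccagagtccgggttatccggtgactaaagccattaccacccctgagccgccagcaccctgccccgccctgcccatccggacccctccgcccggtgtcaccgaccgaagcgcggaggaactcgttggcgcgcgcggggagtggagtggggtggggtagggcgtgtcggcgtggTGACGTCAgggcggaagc
Ccnl2: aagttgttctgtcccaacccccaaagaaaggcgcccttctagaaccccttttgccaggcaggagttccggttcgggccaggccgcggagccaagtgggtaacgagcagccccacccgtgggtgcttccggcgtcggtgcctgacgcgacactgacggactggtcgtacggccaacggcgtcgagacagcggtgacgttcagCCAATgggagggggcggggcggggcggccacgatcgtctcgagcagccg

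Promoter windows were present for 52 of the 68 members, and motifs were searched on both strands of the 250 bases before the start. TGACGTCA occurred in 1.62% of all 27018 windows and in 2 member windows, those of Ccnl1 and of the inhibitor Cdkn2b. CCAAT occurred in 34.5% of all windows and in 24 of the 52 members. The letters TTTGAA, which include those of the cell cycle homology region known from late cell-cycle genes, occurred in 16.3% of all windows and in 8 of the 52 members, among them 3 of 9 cell-cycle members (Ccnb2, Ccnf and Cdk1) and 0 of 11 transcriptional members. Of 2 forms of the E2F site, TTTCCCGC occurred in 0.929% of all windows and, among members, in Cdk2, and TTTGGCGC in 0.437% and in 0 members. Also searched were TGACG, a part of TGACGTCA (17.9% of all windows, 18 members), CACGTG (6.05%, 6 members), TATAAA (12.97%, 2 members), GGGCGG (32.9%, 39 members), and 1 form each of the glucocorticoid response element (0.037%), the NF-kappaB site (0.130%) and the serum response element (0.074%), each in 0 members. These matches describe letters in a window and are not evidence of binding.

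**Figure D1:**
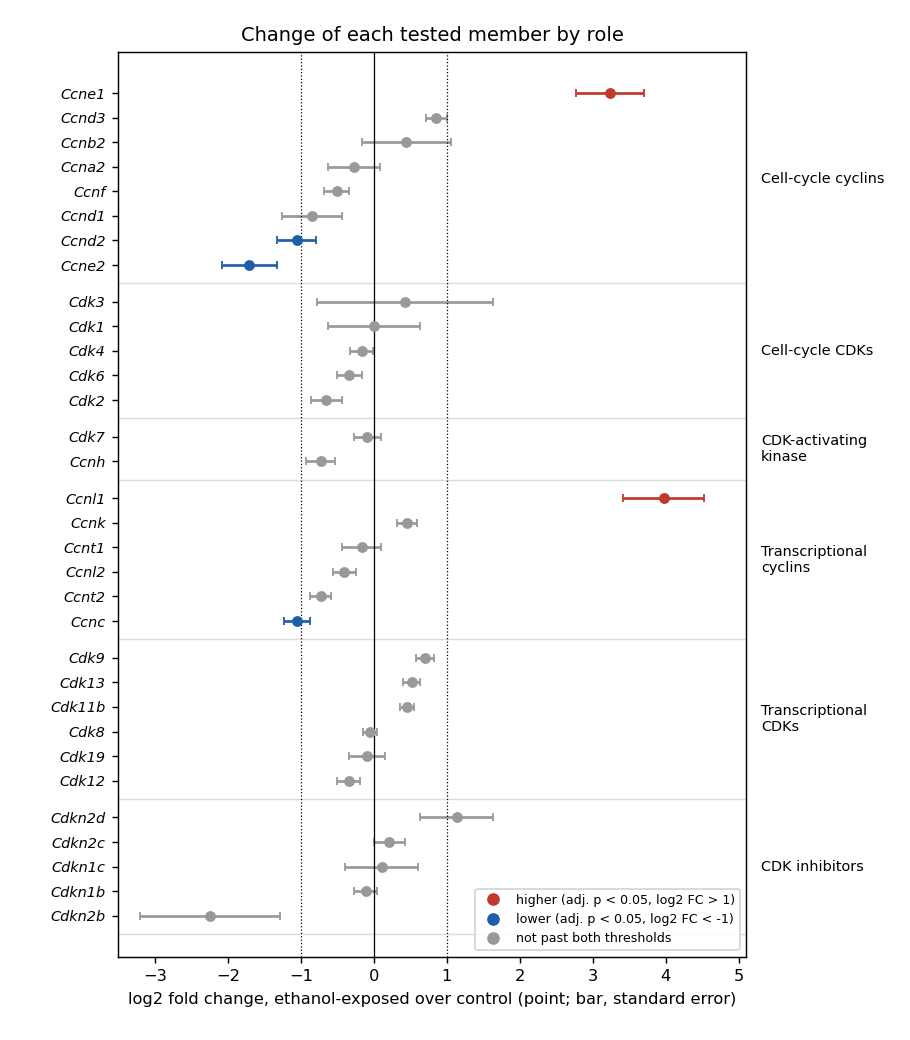
Log2 fold change (ethanol-exposed over control, x axis) of each tested cell-cycle, CDK-activating, transcriptional and inhibitor member, grouped by role; points are edgeR estimates, bars are standard errors, and dotted lines mark a log2 fold change of 1 in either direction. Ccnl1 and Ccne1 stand furthest to the right at 3.97 and 3.23, and the 12 CDKs drawn, Cdk7 included, lie between the dotted lines.

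Among the cell-cycle cyclins, the D-type genes link outside signals to the cycle. Ccnd1, the D-type cyclin that regenerating hepatocytes induce, measured 4.57, 6.00 and 13.9 CPM in ethanol-exposed and 10.995, 16.6 and 16.4 CPM in control libraries. The groups overlapped through ethanol replicate 3, which lay above control replicate 1. Its log2 fold change of -0.84 (SE 0.41) did not pass edgeR's test (adjusted p = 0.137), and without ethanol replicate 3 it was -1.46 (adjusted p = 0.0014). Ccnd2 was at 2.55, 3.25 and 1.67 CPM after ethanol and 4.92, 5.20 and 5.42 CPM in controls. All ethanol libraries lay below all controls, and Ccnd2 fell 2.08-fold (edgeR log2 fold change -1.05, SE 0.27, adjusted p = 0.0173). That call was narrow: edgeR's adjusted p rose to 0.0516 when ethanol replicate 1 was left out, to 0.0579 for control replicate 2 and to 0.064 for control replicate 3, and the change was -0.82 when ethanol replicate 3 was left out. Ccnd3, the third D-type gene, stood at 41.5, 39.7 and 46.2 CPM against 19.4, 24.4 and 26.5 CPM. Its groups did not overlap, and the change of 0.86 (SE 0.14, edgeR adjusted p = 0.00333) passed the adjusted p but not the fold threshold. By library size the change was 0.19 and did not pass (adjusted p = 0.286 in edgeR). Under 1 other alternative it was stronger, at 1.04, and past the fold threshold. Ccnd3 overlaps Bysl on the opposite strand, so some of its reads could belong to that gene.

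The balance within the D-type genes differed between groups in every library. The ratio of Ccnd3 to Ccnd2 in FPKM, which is scaled to transcript length and so allows a comparison between genes, was 13.1 to 29.9 in ethanol-exposed and 4.23 to 5.27 in control livers. The Ccnd3 to Ccnd1 ratio was 1.78 to 4.89 and 0.787 to 0.945, respectively.

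E-type cyclins, the partners of Cdk2 at the start of S phase, moved in opposite directions. Ccne1 (ENSMUSG00000002068) was at 4.97, 4.17 and 3.81 CPM in ethanol-exposed livers and 0.181, 0.669 and 0.534 CPM in controls. Every ethanol library held at least 208 reads of Ccne1 and no control more than 51. The edgeR log2 fold change was 3.23 (SE 0.47, adjusted p = 0.00194), while with limma on log2(FPKM + 1), which understates low genes, it was 0.87 and short of the fold threshold. Ccne2 was at 0.382, 0.491 and 0.403 CPM after ethanol and 0.895, 1.46 and 1.82 CPM in controls. It fell with a log2 fold change of -1.70 (SE 0.38, edgeR adjusted p = 0.0107). These are low levels of 22 to 30 reads after ethanol, Ccne2 overlaps Ints8 on the opposite strand, and the call was lost without control replicate 3 (-1.47, adjusted p = 0.0543). The Ccne1 to Ccne2 ratio in FPKM was 0.248 to 0.590 in control livers, where Ccne2 was the higher of the pair, and 11.5 to 17.4 after ethanol, where Ccne1 was.

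Cyclins of later phases were scarce in both groups. Ccna2, the S and G2 phase cyclin, was at 0.605 to 0.898 CPM after ethanol and 0.671 to 0.996 CPM in controls (-0.28, SE 0.36, edgeR adjusted p = 0.555). The mitotic cyclin Ccnb2 was at 0.191 to 0.751 and 0.236 to 0.458 CPM (0.45, SE 0.61, edgeR adjusted p = 0.58, and -0.23 by library size). Its relative Ccnb1 had at most 40 reads in a library and was not tested. Ccnf, which is part of a ubiquitin ligase rather than a CDK partner, passed the adjusted p alone at -0.51 (SE 0.17, edgeR adjusted p = 0.0472). This pass held without ethanol replicate 3 but was lost without any of the other libraries, at 0.0987 to 0.143. It was also lost in edgeR with a replicate block (0.063), the length trend removed (0.16) and no filter on low counts (0.0603).

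**Figure D2:**
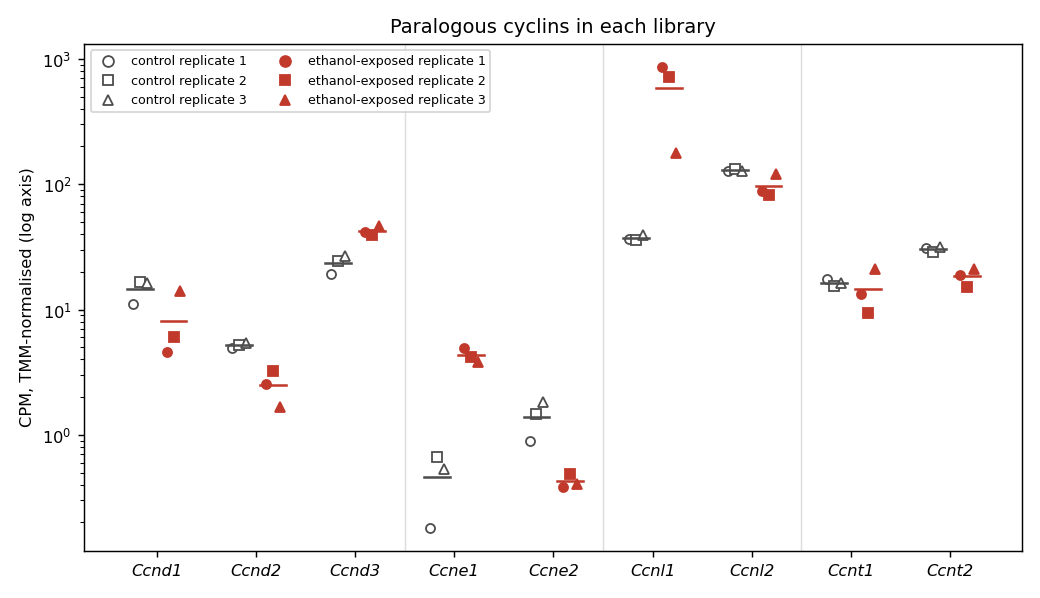
TMM-normalised CPM (log axis) of the D-, E-, L- and T-type cyclins in each library; open symbols are the 3 control and filled symbols the 3 ethanol-exposed mice, symbol shape gives the replicate number and short lines are group means. Ccne1 and Ccne2 exchange their order between the groups, and Ccnl1 rises above Ccnl2 in every ethanol library.

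None of the 5 kinases that these cyclins serve was a DEG with TMM scaling. By library size, Cdk2 (-1.33, edgeR adjusted p = 0.00127) and Cdk6 (-1.01, edgeR adjusted p = 0.00152) were lower past both thresholds. Cdk4 was at 18.6, 20.5 and 27.6 CPM after ethanol and 23.4, 26.4 and 25.2 CPM in controls (log2 fold change -0.17, SE 0.16). Cdk6, its relative, was at 18.8, 12.5 and 18.0 CPM against 19.1, 22.4 and 20.6 CPM (-0.34, SE 0.17). With TMM scaling neither passed edgeR's test (adjusted p of 0.432 and 0.157). Cdk2, the partner of E-type and A-type cyclins, was at 5.27, 4.82 and 7.86 CPM against 9.62, 9.50 and 9.02 CPM. All ethanol libraries lay below the controls, and the change of -0.65 (SE 0.21, edgeR adjusted p = 0.0413) passed the adjusted p alone. That pass held without ethanol replicate 3 but was lost without any of the other libraries, at edgeR adjusted p of 0.0925 to 0.114. It was also lost in edgeR with the length trend removed (0.104), a replicate block (0.064) and no filter on low counts (0.0554). Cdk1, the mitotic kinase, was at 1.27, 0.605 and 0.257 CPM after ethanol and 0.416, 1.04 and 0.68 CPM in controls, and no change was detectable at this depth (0.00, SE 0.63, and -0.66 by library size). Cdk3 had 0.531 CPM at most (0.43, SE 1.20, and -0.26 by library size).

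In the CDK-activating kinase, which phosphorylates the cell-cycle CDKs and, within the general factor TFIIH, RNA polymerase II, Cdk7 was at 6.605, 6.62 and 9.62 CPM after ethanol and 8.40, 7.69 and 8.21 CPM in controls (-0.09, SE 0.19). Its cyclin, Ccnh, was at 5.81 to 9.80 against 12.4 to 14.1 CPM and passed the adjusted p alone (-0.73, SE 0.20, edgeR adjusted p = 0.0249). Without ethanol replicate 2 or any of the controls its adjusted p was 0.0514 to 0.0868, and with the length trend removed 0.0533.

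Transcriptional cyclins held the largest single rise among the abundant members. Ccnl1 (ENSMUSG00000027829), the splicing-associated partner of Cdk11, reached 860, 712 and 177 CPM in ethanol-exposed livers against 36.6, 35.6 and 39.2 CPM in controls. The groups did not overlap, although ethanol replicate 3 was well below the other ethanol libraries. Its log2 fold change was 3.97 (SE 0.55, edgeR adjusted p = 0.00168), and it was a DEG under every alternative tried, at 2.86 to 4.41. Ccnl1 overlaps the gene Gm37305 on the opposite strand. Ccnl2 was at 87.4, 82.7 and 122 CPM after ethanol and 127, 133 and 128 CPM in controls (-0.41, SE 0.16, edgeR adjusted p = 0.0732). By library size it was a DEG (-1.08, edgeR adjusted p = 0.000875). Leaving out single libraries gave Ccnl2 values of -0.59 to -0.31, with edgeR adjusted p of 0.0006 to 0.183. The Ccnl1 to Ccnl2 ratio in FPKM was 0.235 to 0.270 in controls and 8.66, 7.58 and 1.28 in ethanol replicates 1, 2 and 3.

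Their kinase, Cdk11b, was at 39.1, 37.3 and 41.8 CPM against 28.9, 29.0 and 28.6 CPM. It passed the adjusted p alone at 0.45 (SE 0.10, edgeR adjusted p = 0.00843), but its sign turned to -0.22 when libraries were scaled by size alone. The same held for Cdk13 (0.52, SE 0.12, and -0.15 by library size) and for its cyclin Ccnk (0.45, SE 0.14, and -0.22 by library size), which work on polymerase far along the gene. Leaving out single libraries ended the pass of Cdk13 in 2 cases (controls 2 and 3) and that of Ccnk in 4. Cdk12, the other partner of cyclin K, was not called (-0.34, SE 0.16, edgeR adjusted p = 0.116).

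In Mediator's kinase module the cyclin and its kinases parted. Ccnc was at 6.33, 7.91 and 7.11 CPM after ethanol and 12.9, 13.7 and 17.8 CPM in controls, and it fell 2.08-fold (edgeR log2 fold change -1.05, SE 0.17, adjusted p = 0.00318). The fall was just past the fold threshold. Without ethanol replicate 1 or control replicate 3 it was -0.98 and -0.90, each with an edgeR adjusted p of 0.016. With the trend on transcript length removed, Ccnl1 was the 1 transcriptional DEG, so Ccnc was not called. The weakest value of Ccnc under any alternative was -0.87. Cdk8 was at 27.7 to 30.4 against 29.9 to 30.8 CPM (-0.05, SE 0.09, edgeR adjusted p = 0.707), and Cdk19 changed by -0.10 (SE 0.25). The Cdk8 to Ccnc ratio in FPKM was 1.83 to 2.51 after ethanol and 0.901 to 1.21 in controls.

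P-TEFb releases paused polymerase into the gene body and is held inactive by a complex of 7SK RNA with Hexim1, Larp7 and Mepce. Cdk9 was at 40.2, 33.3 and 43.6 CPM in ethanol-exposed and 24.5, 24.1 and 23.8 CPM in control livers. The groups did not overlap, and the change of 0.69 (SE 0.12, edgeR adjusted p = 0.00434) passed the adjusted p alone and was 0.021 by library size. Of its cyclins, Ccnt1 was at 13.4, 9.39 and 21.0 against 17.6, 15.4 and 16.2 CPM. Its change of -0.17 (SE 0.27) was not called and turned to 0.064 without ethanol replicate 2 and to 0.017 with the trend on transcript length removed. Ccnt2 was at 15.1 to 21.2 against 28.6 to 31.8 CPM and passed the adjusted p alone (-0.72, SE 0.14, edgeR adjusted p = 0.00676).

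The partners of P-TEFb differed more than its subunits. Hexim1, the inhibitor, was at 6.10, 5.74 and 10.6 CPM after ethanol and 40.0, 40.1 and 39.4 CPM in controls, a 5.34-fold fall (edgeR log2 fold change -2.42, SE 0.24, adjusted p = 0.000468). The Cdk9 to Hexim1 ratio in FPKM was 4.99, 4.40 and 3.13 in ethanol-exposed livers and 0.454 to 0.464 in controls. Ell, an elongation factor that joins P-TEFb in the super elongation complex, was at 137, 110 and 101 CPM against 22.0, 19.0 and 21.9 CPM (2.47, SE 0.15, edgeR adjusted p = 8.86e-05). Aff4, the scaffold of that complex, rose 2.21-fold (1.15, SE 0.10, edgeR adjusted p = 0.000286), but by 0.48 with library size alone. Of the 28 partners of the transcriptional CDKs that were listed and tested, 4 rose and 7 fell (39.3%, against 24.2% of all genes), with a median log2 fold change of -0.13. By library size 2 were higher and 12 lower, and 8 changed sign, where 37.3% of all genes were called (5.06% higher and 32.2% lower). Larp7 (-1.14, SE 0.21, edgeR adjusted p = 0.00551), Mepce (-1.23, SE 0.25, edgeR adjusted p = 0.00704) and Ell2 (2.37, SE 0.26, edgeR adjusted p = 0.000684) were picked from this list after their values were seen. Larp7 stood at -0.995 without ethanol replicate 3, just short of the fold threshold.

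**Figure D3:**
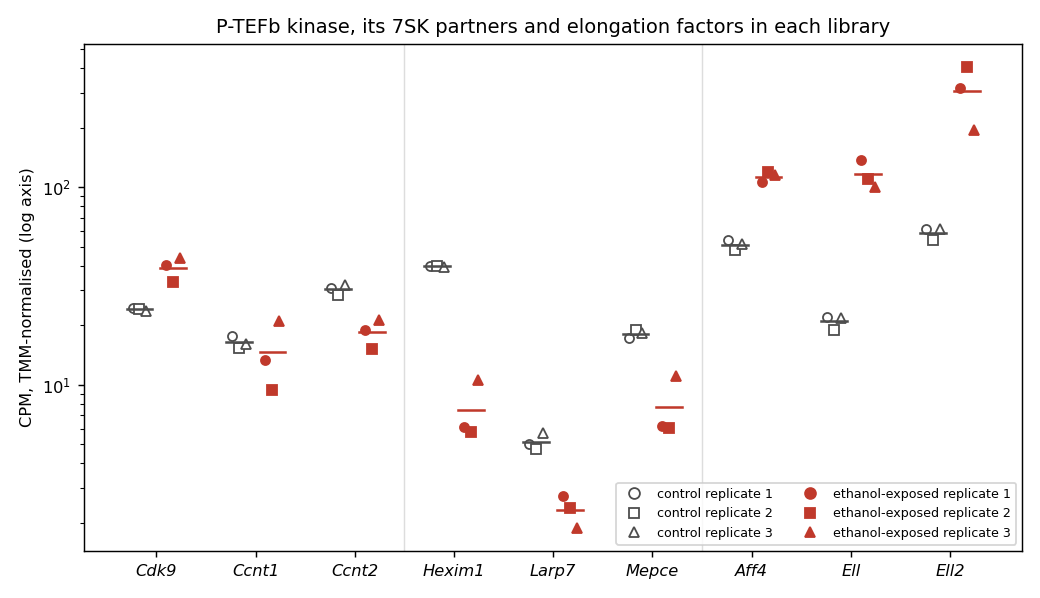
TMM-normalised CPM (log axis) of the P-TEFb subunits Cdk9, Ccnt1 and Ccnt2, the 7SK partners Hexim1, Larp7 and Mepce, and the elongation factors Aff4, Ell and Ell2 in each library, with symbols as in the plot of paralogous cyclins. Hexim1 lies at 5.74 to 10.6 CPM in ethanol-exposed and at 39.4 to 40.1 CPM in control libraries. Aff4, Ell and Ell2 lie higher in every ethanol library than in any control. They are among the 4 listed partners of the transcriptional CDKs that rose, while 7 fell, Nelfa and Nelfb among them.

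Set side by side, the cell-cycle and transcriptional members held 23.1% and 16.7% DEGs, against 24.2% of all genes tested. The difference between the kinds was not tested. Of 13 tested cell-cycle members, 1 rose (Ccne1) and 2 fell (Ccnd2 and Ccne2), and 5 had libraries that did not overlap with ethanol below against 2 with ethanol above. Of 12 transcriptional members, 1 rose (Ccnl1) and 1 fell (Ccnc), with 3 below and 5 above. For all genes tested, 59.0% had libraries that did not overlap, 31.0% with ethanol below and 28.0% with it above. The median log2 fold change was -0.28 for cell-cycle and -0.07 for transcriptional members, and neither median was tested. Library by library, the median cell-cycle member stood at -0.51, -0.46 and -0.05 on the log2 scale relative to the control mean in ethanol replicates 1, 2 and 3, and the controls at -0.11 to 0.08. The median transcriptional member stood at -0.14, 0.09 and 0.17 in the ethanol libraries and at -0.05 to 0.01 in controls. The cell-cycle median was thus below every control in ethanol replicates 1 and 2 and within the control range in replicate 3, and without that library it was -0.48. Leaving out members that overlap another gene in the table left 5, with a median of 0.43 that is the value of Cdk3 (SE 1.20).

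With TMM scaling, none of the 5 CDK inhibitors tested was called, nor did any pass the adjusted p alone. Cdkn1b (p27), an inhibitor of Cdk2 complexes, was at 11.3 to 15.4 CPM after ethanol and 13.5 to 16.2 CPM in controls (-0.11, SE 0.15, edgeR adjusted p = 0.578). Cdkn2c (p18), an inhibitor of Cdk4 and Cdk6, was at 3.28 to 3.62 against 2.40 to 3.23 CPM (0.21, SE 0.21). Its groups did not overlap on this scale, but its change was -0.46 by library size. Its relative Cdkn2d (p19) was at 2.21, 2.04 and 6.80 CPM against 2.06, 1.43 and 1.54 CPM, so that its change of 1.13 (SE 0.49, edgeR adjusted p = 0.103) rested mainly on ethanol replicate 3. Cdkn1c (p57) was at 0.403 to 0.932 against 0.433 to 1.02 CPM (0.11, SE 0.49, and -0.55 by library size). Cdkn2b (p15) had 0 to 4 reads per library after ethanol and 12 to 31 in controls (-2.24, SE 0.96, edgeR adjusted p = 0.0971). By library size it was called lower (-2.89, edgeR adjusted p = 0.0368). Cdkn3, a phosphatase that acts on CDKs, had at most 15 reads and was not tested. For comparison, the excluded Cdkn1a (p21) averaged 294 ± 51.2 CPM after ethanol and 14.7 ± 2.56 CPM in controls (SD, n = 3), with an edgeR log2 fold change of 4.32 (adjusted p = 5.61e-05).

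Outside these roles, 4 cyclins and CDKs rose past both thresholds. They were 2 of the 8 other cyclins and 2 of the 7 other CDKs tested, beside 10.4% of all genes. Cdk17, a little-studied kinase of the PCTAIRE family, was at 92.5, 69.5 and 87.0 CPM in ethanol-exposed and 18.3, 19.5 and 18.1 CPM in control livers (edgeR log2 fold change 2.15, SE 0.13, adjusted p = 9.88e-05). The lowest ethanol library was more than 3 times the highest control. Cdk18, of the same family, was at 61.6, 63.0 and 52.9 against 26.8, 28.0 and 25.3 CPM (1.15, SE 0.11, edgeR adjusted p = 0.000423), and by library size alone its change was 0.48. The remaining member of that family, Cdk16, was at 17.4, 18.5 and 26.1 against 24.3, 23.9 and 23.5 CPM (-0.21, SE 0.17, edgeR adjusted p = 0.338). Cdk17 overlaps Elk3 on the opposite strand and a microRNA gene on its own, and Cdk18 overlaps Gm29629 on the opposite strand.

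Both cyclins in this group were low. Ccno, known for its part in multiciliated cells, was at 1.77, 3.20 and 2.93 CPM after ethanol and 0.139, 0.105 and 0 CPM in controls (edgeR log2 fold change 4.98, SE 0.82, adjusted p = 0.00313). It had 102 to 196 reads in the ethanol libraries and 13, 8 and 0 in the controls, and its fitted size depends on how the empty control library is treated. Ccnjl had 19 to 35 reads after ethanol and 4 to 15 in controls, and was called at 2.31 (SE 0.63, edgeR adjusted p = 0.0232). The call did not hold, at edgeR adjusted p of 0.0754 to 0.0912, when ethanol replicate 1 or either of control replicates 2 and 3 was left out. By library size Ccnjl was not called either (1.64, edgeR adjusted p = 0.0615). Ccng2, an atypical cyclin, passed the adjusted p alone at 0.83 (SE 0.19, edgeR adjusted p = 0.0112), and without ethanol replicate 3 it was past the fold threshold at 1.02, while by library size it was 0.17 (adjusted p = 0.50). Ccni and Ccny passed it alone as well, at 0.41 and 0.51, but their signs turned to -0.26 and -0.15 by library size. Without the least favourable library, the edgeR adjusted p of Ccng2, Ccni and Ccny was 0.0518, 0.053 and 0.0557.

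Lower in ethanol-exposed livers past both thresholds were 2 of the 9 named partners tested, and 0 were higher. That is 22.2% called, near the 24.2% of all genes, of which 13.8% were lower. Cdk2ap2, named as a partner of Cdk2, passed the adjusted p alone (-0.95, SE 0.18, edgeR adjusted p = 0.00507). Cdk5rap2, a centrosome protein that anchors microtubules, was at 1.69, 1.03 and 0.861 against 5.37, 4.53 and 4.34 CPM (edgeR log2 fold change -1.99, SE 0.30, adjusted p = 0.00229). Cdk5rap1, an enzyme that modifies mitochondrial tRNA, was at 2.97, 3.38 and 3.46 against 5.21, 7.81 and 8.28 CPM (-1.12, SE 0.22, edgeR adjusted p = 0.00692), and without control replicate 3 it stood at -0.995, just short of the fold threshold.

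The order of levels, compared in FPKM since these are per length, also differed. These values are not scaled by TMM, so a gene with no change in CPM appears lower after ethanol. Among 24 cyclins, control livers held most of Ccni (36.4 ± 1.15 FPKM, SD, n = 3) and Ccnl2 (28.8 ± 0.689), followed by Ccny (7.48 ± 0.539) and Ccnl1 (7.29 ± 0.361), which did not differ beyond their spread. After ethanol, Ccnl1 came first at 72.6 ± 44.9 FPKM, 48.8% of all cyclin FPKM against 6.05% in controls, ahead of Ccni (30.3 ± 2.64) and Ccnl2 (13.6 ± 2.54). The spread of Ccnl1 reaches down to Ccni, since ethanol replicate 3 was low. Among 25 kinases, Cdk4 (9.06 ± 0.536) and Cdk11b (9.04 ± 0.0842) led in controls without differing beyond their spread, with Cdk17 well below them at 3.60 ± 0.147. After ethanol, Cdk17 (10.03 ± 1.06) and Cdk18 (9.21 ± 1.18) came first, again within their spread, and Cdk4 came behind Cdk11b and Cdk9 at 5.04 ± 0.984.

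**Figure D4:**
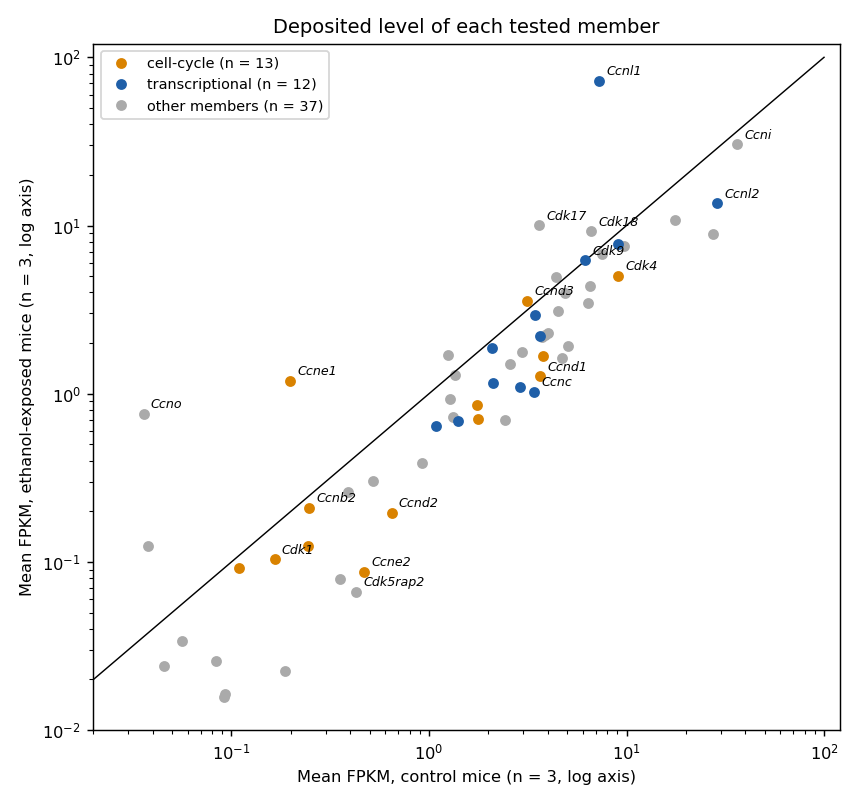
Mean FPKM of each tested member in control (x axis) and ethanol-exposed (y axis) livers, both on log axes, n = 3 per group, coloured by kind; the line marks equal FPKM. FPKM is not scaled by TMM, and most members lie below the line, while Ccnl1, Ccne1, Ccno, Ccnjl and Cdk17 lie well above it.

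Genes that act with the cell-cycle members were described from the same fit. Of 11 regulators of CDK activity and cyclin turnover tested, 1 rose and 2 fell (27.3%, against 24.2% of all genes), with a median of -0.32. By library size 1 was higher and 4 lower, beside 5.06% and 32.2% of all genes. Wee1, the kinase that holds Cdk1 and Cdk2 inactive, was at 18.4, 16.2 and 4.82 against 1.64, 1.42 and 1.26 CPM (edgeR log2 fold change 3.19, SE 0.49, adjusted p = 0.00239). Skp2, a part of the ligase that marks p27 for degradation, was at 0.605 to 1.31 against 2.45 to 3.31 CPM (-1.59, SE 0.34, edgeR adjusted p = 0.00935). Cdc20, the activator of the anaphase-promoting complex, was at 0.0521, 0.0981 and 0 against 0.533, 1.05 and 0.498 CPM (-3.72, SE 0.88, edgeR adjusted p = 0.0135), and its call was lost without control replicate 2 (adjusted p = 0.0662).

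The retinoblastoma and E2F list, the main target of the D-type and E-type kinases, had 3 genes higher and 3 lower of 13 tested. That is 46.2%, against 24.2% of all genes, with a median of -0.06. By library size 2 were higher and 5 lower, beside 5.06% and 32.2% of all genes. E2f8, a repressor of cell-cycle genes, was at 56.2, 35.0 and 17.6 against 2.25, 0.879 and 2.26 CPM (edgeR log2 fold change 4.33, SE 0.54, adjusted p = 0.0011). Tfdp2, an E2F dimer partner, rose 2.05-fold (1.04, SE 0.13, edgeR adjusted p = 0.0013), but without ethanol replicate 3 it was 0.94 and by library size 0.36. E2f6, another repressor, was at 3.77, 3.83 and 1.997 against 12.3, 14.4 and 11.8 CPM (-2.001, SE 0.27, edgeR adjusted p = 0.00145). E2f7, the closest relative of E2f8, which was picked after its values were seen, rose as well (2.56, SE 0.59, edgeR adjusted p = 0.0117).

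Of 19 proliferation genes tested, 2 rose and 6 fell (42.1%, against 24.2% of all genes), with a median of -0.89. By library size 1 was higher and 12 lower, beside 5.06% and 32.2% of all genes. Rrm2, a subunit of ribonucleotide reductase, was at 7.07, 7.70 and 8.91 against 1.76, 2.34 and 2.51 CPM (edgeR log2 fold change 1.84, SE 0.21, adjusted p = 0.00079). Birc5, a mitotic protein, was at 0.209 to 0.294 against 1.11 to 1.37 CPM (-2.34, SE 0.36, edgeR adjusted p = 0.00232), and Mcm7, of the replicative helicase, passed the adjusted p alone (-0.89, SE 0.14, edgeR adjusted p = 0.00304). Mki67, the usual marker of cycling cells, was at 0.366 to 0.556 against 0.437 to 1.15 CPM and was not called.

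Markers of liver cell types were summed in the same scale. The summed level of 10 hepatocyte markers was 134619 to 138274 CPM after ethanol and 72257 to 83641 CPM in controls, and 3 of 10 were called higher. This gap lay mostly in the TMM factors: by library size alone the sums were 103291 to 113738 and 90981 to 105784 CPM, which overlap, with 0 of 10 called. For 8 Kupffer cell markers it was 92.8 to 129 and 125 to 138 CPM with 0 called, but by library size 77.5 to 100.3 and 158 to 173 CPM with 4 called lower. Sums for 6 endothelial markers were 68.9 to 128 and 78.2 to 88.7 CPM (1 higher, 1 lower, and by library size 53.6 to 97.9 and 98.4 to 112 CPM with 1 higher, 3 lower). Lyve1, the 1 called higher, held 24.2, 33.3 and 69.3 CPM of the ethanol sums, against 3.39 to 3.67 CPM in controls. Of the 6 endothelial markers, 4 had a negative and 2 a positive log2 fold change. For 7 stellate cell markers the sums were 226 to 267 and 171 to 190 CPM (0 called, and by library size 174 to 223 and 216 to 240 CPM with 1 lower). For 6 cholangiocyte markers they were 57.6 to 75.0 and 31.8 to 73.3 CPM (1 of 5 tested higher, and by library size 44.2 to 62.7 and 40.3 to 92.1 CPM with 1 higher and 1 lower, Cftr at 0 after ethanol). Neutrophil markers summed to 3.06 to 14.9 against 1.15 to 1.63 CPM, with 4 of 5 tested higher, also by library size (2.38 to 11.5 against 1.46 to 2.05 CPM), and with Mpo and Ly6g at or near 0 in every library. Erythroid markers summed to 579 to 864 against 180 to 220 CPM, with 4 of 5 tested higher, also by library size (480 to 671 against 227 to 277 CPM). For B cell markers the sums were 2.91 to 4.501 and 4.70 to 6.34 CPM (1 of 5 lower, 2 by library size) and for T cell markers 0 to 0.521 and 0.827 to 1.34 CPM (0 of 3 tested called, 1 lower by library size). The part of these cell types in the changes above was not tested.

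Among the untested members, Ccnb1ip1, Cdk5r2 and Cdk15 had no read in any ethanol library and 3 to 5 in 1 control, and the antisense gene Cdk19os had 1 read in all.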

How the data were processed

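For 3 ethanol-exposed and 3 control livers, the authors deposited a whole-number read count per gene, not normalized, and an FPKM value scaled to transcript length and library size. The aligner, the counting software and the use of strand are not given in the sources used here, so overlapping genes are uncertain. The submitters' processing notes name GRCm38 and mm10, but 3 of the 68 members, and 614 of 27049 shared genes, have a start or end in common with the GENCODE annotation of that build, so gene positions are not printed and the promoter sequences come from RefSeq by symbol. A further column of counts (1 in all) matches no library of the study and was not used.

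Counts were tested in R 4.3.3 with edgeR 4.0.16 (filterByExpr, TMM, quasi-likelihood test, no covariates), with Benjamini-Hochberg adjustment over all 16717 genes tested. Libraries come from separate mice. Totals were 60514417 to 74210869 counts, so that counting error matters for low members only, and the square root of the common dispersion was 0.299. Libraries of a group differed by more than sampling noise. Alternatives were DESeq2 1.42.0, limma 3.58.1 on log2(FPKM + 1) and log2(FPKM + 0.1), other scalings and filters, a replicate block and each library left out.

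Members and lists were chosen with earlier results of these data known. All cell-cycle, CDK-activating, transcriptional and inhibitor members were named, the DEGs of other roles, and the 3 genes with the smallest adjusted p of each pathway list. Others named were chosen after their values were seen. Ccna1, Ccnb3 and Cdkn2a were not analysed here. The values of 1 lower DEG are not reported here.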

Additional observations from a re-analysis of the deposited data

How the results depend on the processing

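Precision was limited by 3 mice per group, and among members with few reads standard errors reached 1.66 (Cdkl1). Median ratio size factors in edgeR, upper quartile factors, no filter on low counts and DESeq2 gave counts of DEGs among the members within 1.5 times those reported. Scaling by library size alone gave 4 members higher and 18 lower, where 5.06% of all genes were higher and 32.2% lower. It gave 7 cell-cycle and 5 transcriptional DEGs and 1 inhibitor (Cdkn2b). The medians were -0.95 and -0.73 for the cell-cycle and transcriptional members (-0.71 for all genes). Removing the trend with transcript length gave 8 members higher and 3 lower, where 11.4% of all genes were higher and 11.5% lower. There was 1 transcriptional DEG, and the transcriptional median was 0.11 (all genes 0.03). With limma on log2(FPKM + 1), 2 members were higher and 6 lower, where 3.40% of all genes were higher and 14.4% lower. The 1 cell-cycle member called was Ccnd1 (-1.07, limma adjusted p = 0.00653) and not Ccne1 (0.87), Ccnd2 (-0.46) or Ccne2 (not tested there). The medians were -0.64 and -0.43 (all genes -0.44). With log2(FPKM + 0.1), 3 members were higher and 12 lower, where 4.83% of all genes were higher and 32.1% lower. There, 5 cell-cycle and 4 transcriptional members were called, and the medians were -1.05 and -0.70 (all genes -0.62). The adjusted p alone gave 15 higher and 12 lower (21.5% of all genes in each direction), with 6 cell-cycle and 7 transcriptional members. Members with a mean FPKM of at least 1 left 0 cell-cycle DEGs in edgeR's test, against 3 of all 13, and a filter of 1 CPM gave a cell-cycle median of -0.51. Without members that overlap another gene, there was 1 transcriptional DEG, and the medians were 0.43 and -0.41, over 5 members each. Leaving out each library in turn gave 5 to 7 members higher and 2 to 9 lower, 1 to 3 cell-cycle and 1 to 2 transcriptional DEGs, and a cell-cycle median of -0.48 to -0.17. Without control replicate 3, which moved these counts most, 5 were higher and 2 lower, where 8.61% of all genes were higher and 9.88% lower. The counts of 7 higher and 9 lower came without ethanol replicate 3, where 10.9% of all genes were higher and 16.5% lower. The lowest count of transcriptional DEGs was also reached without ethanol replicate 1, where 3 members and 11.9% of all genes were lower.

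Signs turned under library size alone, limma on log2(FPKM + 1) and limma on log2(FPKM + 0.1) for Cdk2ap1 (-0.35, -0.31 and -0.35), Ccni (-0.26, -0.26 and -0.27), Ccny (-0.15, -0.14 and -0.16), Cdk11b (-0.22, -0.20 and -0.22), Cdk13 (-0.15, -0.10 and -0.14) and Ccnk (-0.22, -0.17 and -0.21). Ccnt1 turned to 0.017 with the length trend removed, and leaving out a library gave it -0.52 (without ethanol replicate 3) to 0.064 (without ethanol replicate 2).

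Replicate numbers do not pair the mice: deviations of same-numbered libraries correlated at -0.03, -0.02 and -0.02. With the replicate block, 5 members were higher and 6 lower, where 9.08% of all genes were higher and 12.0% lower. Ccnjl lost its call there (edgeR adjusted p = 0.0508). The cause of these differences was not tested.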

Other observations

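Within the proliferation list, several subunits of the replicative helicase fell, and differences between the subunits were not tested. These genes were singled out after their values were seen. Mcm5 was at 0.348, 0.0491 and 0.257 CPM in ethanol-exposed and 1.75, 6.04 and 4.89 CPM in control livers (edgeR log2 fold change -4.28, SE 0.72, adjusted p = 0.00357). Mcm6 fell as well (-2.09, SE 0.47, edgeR adjusted p = 0.0108), as did Mcm3 (-1.57, SE 0.33, edgeR adjusted p = 0.00789). Mcm2 was at 15.6, 13.5 and 4.10 CPM after ethanol and 2.44, 5.97 and 5.68 CPM in controls, where ethanol replicate 3 lay among the controls. Mcm2 was not called (1.24, SE 0.53, edgeR adjusted p = 0.0977), nor was Mcm4 (-0.85, SE 0.46, edgeR adjusted p = 0.18). Mcm7 is given above.

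For TFIIH, the general factor that holds the CDK-activating kinase, values differed by subunit, and this difference was not tested. Gtf2h2 was at 3.70, 4.01 and 3.88 CPM against 8.76, 8.92 and 8.77 CPM (edgeR log2 fold change -1.19, SE 0.14, adjusted p = 0.000959), and the helicase gene Ercc2 fell too (-1.04, SE 0.18, edgeR adjusted p = 0.00378). The other helicase gene, Ercc3, was at 27.7, 21.1 and 24.0 CPM against 15.9, 15.5 and 16.1 CPM and passed the adjusted p alone (0.62, SE 0.13, edgeR adjusted p = 0.00779), but its change was -0.05 by library size. Mnat1, the assembly factor of the CDK-activating kinase, was at 3.42 to 4.93 against 4.76 to 5.39 CPM and was not called (-0.32, SE 0.20, edgeR adjusted p = 0.23).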
